A study of Mus musculus with 26 samples.

Results

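The 4 Hox gene clusters of the mouse were examined as fixed windows of mouse build mm9, and every peak touching a window was taken as a member. The windows were HoxA at chr6:52090000-52230000 (140 kb), HoxB at chr11:96040000-96245000 (205 kb), HoxC at chr15:102735000-102890000 (155 kb) and HoxD at chr2:74490000-74620000 (130 kb). They held 428 of the 763552 peaks in the 16 lists, with 136 in HoxA, 82 in HoxB, 144 in HoxC and 66 in HoxD. By assay, 127 were SMC3 peaks, 265 were peaks of accessible chromatin and 36 were summits of RNA-associated chromatin. No measured value entered the rule that set the windows, though earlier results of these data were known when they were chosen.

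All cells were of the mouse line C2C12, whose myoblasts fuse to myotubes on withdrawal of serum, and each group had 2 libraries. ChIP-seq of SMC3, a subunit of the cohesin ring, was done in myoblasts (growth medium, 20% serum) and myotubes (2% horse serum), for both of which the labels give no transfection, and in myotubes transfected with siDRR, an siRNA against the DRR enhancer RNA. ATAC-seq, which cuts open chromatin with a transposase, was done in myotubes transfected with control siRNA, siDRR or siSmc3, the last directed at the cohesin subunit itself. ChIRP-seq, in which biotinylated probes recover the chromatin bound to an RNA, was done for DRR in myotubes with probe pools 1 and 2. The SMC3 comparison of siDRR with myotubes therefore has no labelled control transfection, and no input or LacZ probe library was analysed here. The labels name no separate cultures, so the spread between the libraries of a group may be technical.

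Hox genes encode homeodomain transcription factors that give cells their position along the body axis. Within a cluster the genes stand in the order of the body regions they pattern, from the anterior genes of low number to the posterior genes of high number. Cohesin extrudes chromatin loops and is held at sites bound by CTCF, several of which lie inside Hox clusters and separate active from silent parts. Muscle stem cells of the adult keep expressing Hox genes that reflect where in the body the muscle formed.

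The windows hold 38 member genes, all matched by symbol in RefSeq: 10 in HoxA (Hoxa2 to Hoxa13), 10 in HoxB (Hoxb1 to Hoxb13), 9 in HoxC (Hoxc4 to Hoxc13) and 9 in HoxD (Hoxd1 to Hoxd13). By their order on the chromosome in GRCm38.p6, the posterior gene Hoxa13 lies at the high-coordinate end of HoxA, while Hoxb13, Hoxc13 and Hoxd13 lie at the low-coordinate end of their clusters. Gene positions in mm9 were not used here, so regions are given by coordinate and by distance from the window start and are not assigned to single genes.

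Promoter sequences show what the letters of a CTCF core and of an E-box, the site of myogenic bHLH factors, look like in these clusters. RefSeq promoters of GRCm38.p6 were matched for 22 of the 38 genes (24 promoters: 9 genes of HoxA, 3 of HoxB, 1 of HoxC and 9 of HoxD), and the 250 bases before each start were searched on both strands. The CTCF core form, CC and AG with 3 free bases between them and GGC after 2 more, was found in 3 of 24 promoters (12.5%; Hoxa11, Hoxc4 and Hoxd11) and in 7.17% of all 32851 promoters, and the E-box CAGCTG in 3 of 24 (12.5%; Hoxa3, Hoxa5 and Hoxa6) and in 13% of all. No member promoter held both motifs. A match is a description of the letters only, and no mm9 peak was placed on these windows. In Hoxc4 the core form is read on the opposite strand, so its capitals below show the reverse complement. The sequences below are 5′ to 3′ on the gene's strand, with the match in capitals: Hoxa11 (minus strand, chr6:52245811-52246060, match starting 185 bases upstream), Hoxc4 (plus strand, chr15:103034145-103034394, 73 bases upstream) and Hoxa6 (minus strand, chr6:52208673-52208922, 84 bases upstream).
Hoxa11: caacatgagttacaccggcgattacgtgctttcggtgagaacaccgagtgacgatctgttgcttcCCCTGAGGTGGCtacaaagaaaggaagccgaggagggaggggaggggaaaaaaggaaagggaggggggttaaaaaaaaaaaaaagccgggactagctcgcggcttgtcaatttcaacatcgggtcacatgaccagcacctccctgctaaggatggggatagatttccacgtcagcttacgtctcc
Hoxc4: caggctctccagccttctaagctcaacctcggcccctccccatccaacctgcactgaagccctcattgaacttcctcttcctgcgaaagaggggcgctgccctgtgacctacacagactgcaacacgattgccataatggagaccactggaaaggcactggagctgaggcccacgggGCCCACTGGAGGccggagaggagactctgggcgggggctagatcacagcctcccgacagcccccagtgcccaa
Hoxa6: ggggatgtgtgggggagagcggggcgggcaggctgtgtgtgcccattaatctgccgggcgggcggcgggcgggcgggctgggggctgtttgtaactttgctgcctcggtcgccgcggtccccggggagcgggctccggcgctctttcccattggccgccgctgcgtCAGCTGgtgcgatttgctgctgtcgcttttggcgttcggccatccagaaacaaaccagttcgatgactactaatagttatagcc

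Lists differed widely in length: 8384 to 33154 peaks for SMC3, 58138 to 103056 for ATAC and 3776 to 68812 for ChIRP. The second library had the longer list in each of the 6 SMC3 and ATAC groups, and it also called more Hox regions than the first in each of them. The lists give no read counts, so the part of sequencing depth in these differences was not tested. For each assay, peaks of all libraries that shared at least 1 bp were merged into regions. The rank percentile of a region in a library is the place of its best-scoring peak in that library's own list, with 100 the best. Between groups, ranks were compared only after the lists had been cut to the same number of best-scoring peaks.

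**Figure D1:**
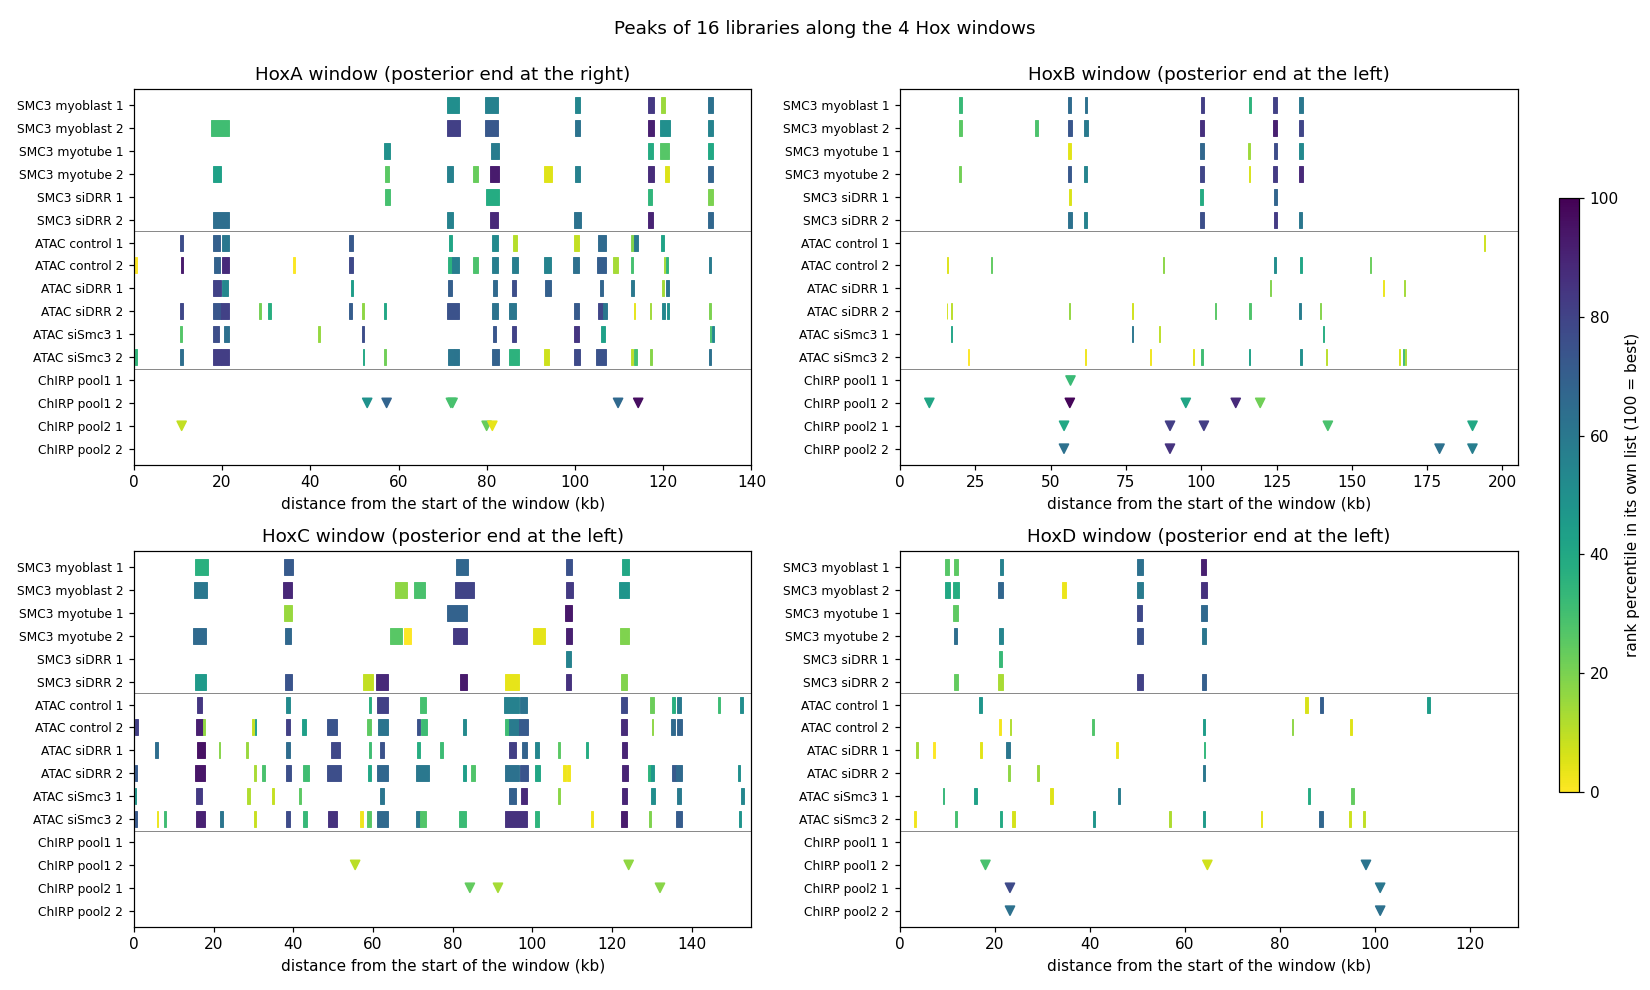
Peaks of the 16 libraries (rows) along the 4 Hox windows, with distance from the window start in kb on the x axis and rank percentile in the peak's own list as colour; bars are SMC3 and ATAC peaks to scale and triangles are ChIRP summits. SMC3 regions called in at least 4 libraries numbered 6 in HoxA, 5 in HoxB, 5 in HoxC and 4 in HoxD, although 5 of 11 in HoxC came from 1 library. Such ATAC regions numbered 12 in HoxA, 0 in HoxB, 12 in HoxC and 1 in HoxD.

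SMC3 peaks recurred in all 4 clusters, whereas accessible sites recurred between libraries mainly in HoxA and HoxC. SMC3 peaks formed 35 regions: 10 in HoxA, 8 in HoxB, 11 in HoxC and 6 in HoxD. This is 7.14, 3.90, 7.10 and 4.62 regions per 100 kb, beside 1.66 over the genome. Both libraries of at least 1 group called 24 of the 35, beside 26097 of 43783 over the genome. All 6 libraries called 7 (20%), beside 16.1% over the genome, and a single library called 9 (25.7%), beside 29.5%. In HoxC a single library gave 5 of 11 regions (45.5%), against 20% in HoxA, 12.5% in HoxB and 16.7% in HoxD. SMC3 peaks covered more of each window than of the genome in 6 of 6 libraries. The covered share ran from 4.29% to 11.7% in HoxA, from 1.46% to 3.87% in HoxB, from 0.854% to 13.3% in HoxC and from 0.519% to 5.03% in HoxD, beside 0.348% to 1.92% of the genome. HoxA stood above HoxB and HoxD in 6 of 6 libraries. HoxC stood above them in 5 of 6, the exception being siDRR library 1, the shortest list, in which HoxC held 1 peak.

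Accessible regions numbered 108: 25 in HoxA, 25 in HoxB, 34 in HoxC and 24 in HoxD. These totals hide a difference in how often the same region was found again. Both control libraries called 11 of 25 regions in HoxA and 10 of 34 in HoxC, and 0 of 25 in HoxB and 0 of 24 in HoxD. Over the genome this was 16.6% of all accessible regions. All 6 libraries called 5 regions in HoxA (20%), 4 in HoxC (11.8%), 0 in HoxB and 0 in HoxD, beside 9.74% over the genome. By this count HoxC was near the genome share, and the 4 windows together gave 9 of 108 (8.33%). A single library gave 7 of the 25 HoxA regions (28%) and 13 of the 34 HoxC regions (38.2%), against 19 of 25 in HoxB (76%) and 16 of 24 in HoxD (66.7%), beside 60.1% over the genome. ATAC peaks covered 5.83% to 13.3% of HoxA and 7.89% to 21.2% of HoxC, but 0.209% to 2.07% of HoxB and 0.984% to 3.65% of HoxD, beside 1.70% to 2.86% of the genome. HoxA and HoxC were above HoxB and HoxD in 6 of 6 libraries, and HoxC was above HoxA in 6 of 6. HoxB was above the genome in 0 of 6 libraries and HoxD in 4 of 6. The 4 windows are single loci, so these orders were read over libraries and no test between clusters was made.

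**Figure D2:**
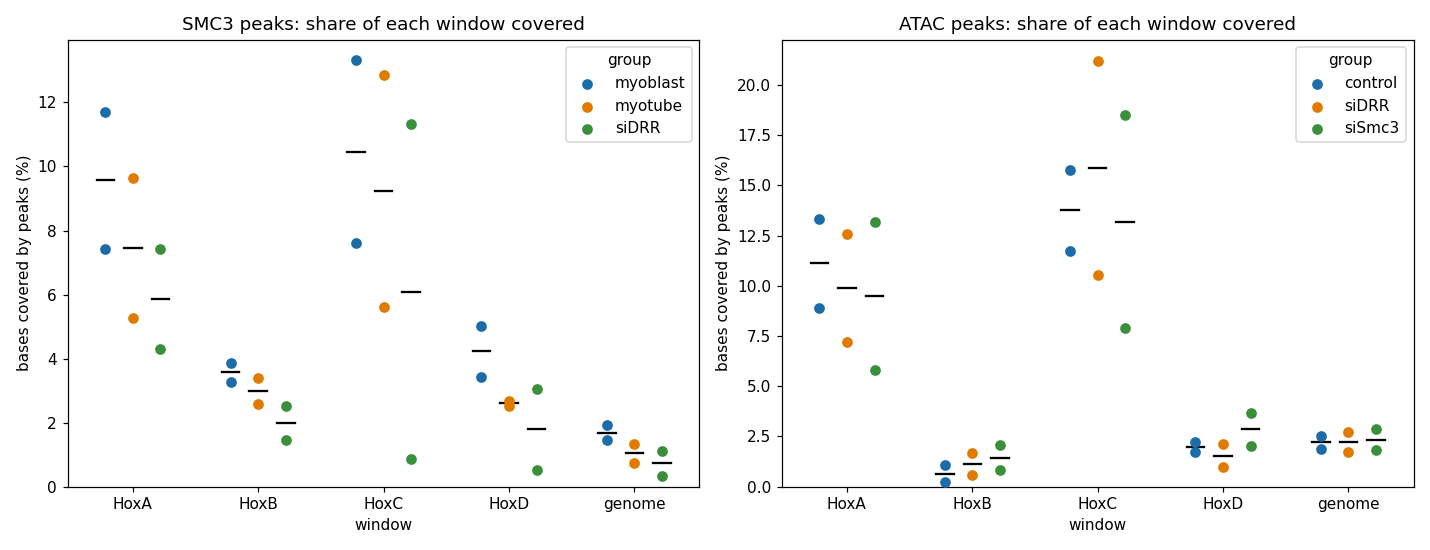
Share of bases covered by SMC3 peaks (left) and ATAC peaks (right), in percent, for each Hox window and the genome; each point is 1 library and the bar is the mean of the 2 libraries of a group. ATAC coverage of HoxA and HoxC lies above that of HoxB, HoxD and the genome in every library, while SMC3 coverage of all 4 windows lies above the genome.

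The strength of the ATAC peaks followed the same division. Single ATAC peaks had a median rank percentile of 59.8 in HoxA and 54.0 in HoxC, against 17.4 in HoxB and 20.5 in HoxD. Percentiles of 75 or more were reached by 16 of 89 peaks in HoxA and 23 of 107 in HoxC, and by 0 of 33 in HoxB and 0 of 36 in HoxD. The share of all peaks of a list at 75 or more is fixed by the ranking, and HoxA and HoxC did not exceed it. HoxB and HoxD fell below it. Median peak width was 850 bp in HoxA and 963 bp in HoxC, against 380 bp in HoxB and 401 bp in HoxD, beside 551 bp over the genome. SMC3 ranks did not divide this way: the median rank percentiles were 55.6 in HoxA, 62.9 in HoxB, 63.0 in HoxC and 58.7 in HoxD. SMC3 peak widths did, with medians of 1307 bp in HoxA and 2341 bp in HoxC, against 1050 bp in HoxB and 991 bp in HoxD. So did the SMC3 regions per 100 kb given above.

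Tiled along the genome, windows of the HoxC length held as much accessible chromatin of both control libraries as HoxC (14.9% of its bases) in 0.323% of cases, and windows of the HoxA length as much as HoxA (13.1%) in 0.737%. The tiles spanned the whole genome and were not matched for gene content. Tiles of the HoxB and HoxD lengths held a median of 2 and 1 such accessible regions, where these windows held 0. For SMC3 of both myotube libraries, the shares of windows covered as much were 0.570% for HoxC (7.35% covered), 0.859% for HoxA (6.80%), 7.08% for HoxB (3.08%) and 10.1% for HoxD (2.85%).

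SMC3 regions in HoxC were broad. All 11 were at least 2026 bp wide with a median of 2877 bp, whereas the widest was 1410 bp in HoxB and 1279 bp in HoxD. Merging over libraries can widen a region, but single peaks showed the same order. The median width of a single SMC3 peak was 2341 bp in HoxC (20 of 32 at 2000 bp or more), 1307 bp in HoxA (8 of 38), 1050 bp in HoxB (0 of 34) and 991 bp in HoxD (0 of 23). Over the genome the median was 1149 bp, and 10.7% of SMC3 peaks reached 2000 bp. The HoxC median within single libraries ran from 1323 to 2756 bp, and the HoxB median from 923 to 1121 bp.

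Stretches of each window held no SMC3 peak, the longest at the anterior edges of HoxB and HoxD. Over the genome SMC3 regions stood at only 1.66 per 100 kb, and stretches without SMC3 were not measured there. These lengths are therefore not shown to be particular to the Hox windows. No library called SMC3 in the 71.3 kb at the anterior edge of HoxB (chr11:96173722-96245000) or in the 65.3 kb at the anterior edge of HoxD (chr2:74554697-74620000). In HoxC the anterior stretch without SMC3 was 30.7 kb, and it held 3 of the accessible regions found in both control libraries. HoxA lacked SMC3 over 17.5 kb at its anterior edge and over 35.1 kb inside the window (chr6:52111641-52146691), and HoxB over 37.3 kb inside its window (chr11:96102269-96139597). In the HoxB and HoxD stretches lay 8 accessible regions each, 0 of them in both control libraries. The posterior edges without SMC3 were shorter, at 8.7 kb in HoxA, 19.6 kb in HoxB, 14.8 kb in HoxC and 9.5 kb in HoxD. How far each edge reaches beyond the outermost gene was not used here, so an edge can hold flanking sequence.

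In all 6 libraries SMC3 was called at 7 sites, 3 in HoxA, 3 in HoxB and 1 in HoxC. In HoxA the region chr6:52206475-52207842 (22.8 kb from the posterior edge) stood at percentiles of 83.7 and 91.5 in myoblasts, 38.8 and 87.7 in myotubes and 34.7 and 90.3 after siDRR. The region chr6:52169609-52172881 (58.8 kb from that edge) stood at 56.4 and 72.8, 58.5 and 92.7, and 38.3 and 88.3. The third HoxA region of all 6 libraries, chr6:52220060-52221344 (9.3 kb from that edge), stood at 62.6 and 55.4, 40.2 and 68.2, and 19.8 and 67.1. All 3 were called in every library. Their percentiles of 34.7, 38.3 and 19.8 in the first siDRR list are places within the shortest list, of 8384 peaks. With lists cut to that length, 1 HoxA region was called in all 4 myotube and siDRR lists. This was chr6:52169932-52172881, at 25.5 and 76.8 in myotubes and 38.3 and 67.7 after siDRR, values that overlap.

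HoxB also had 3 SMC3 regions in all 6 libraries. The region chr11:96163883-96165279 stood at 80.7 and 91.3 in myoblasts, 76.7 and 82.4 in myotubes and 67.8 and 82.5 after siDRR. The region chr11:96139598-96141007 stood at 81.9 and 86.3, 67.0 and 78.9, and 39.0 and 76.1. The region chr11:96095855-96097034 was less even, at 65.7 and 73.3, 4.58 and 72.9, and 5.51 and 62.6, so that it was near the end of the first myotube and first siDRR lists. The region chr11:96172421-96173721, the last SMC3 site before the anterior stretch, stood at 60.3 and 79.1, 52.9 and 88.5, and at 60.5 in the second siDRR library alone.

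In HoxC only chr15:102843287-102845312 was called in all 6 libraries, at 75.3 and 82.8 in myoblasts, 93.5 and 91.0 in myotubes and 56.0 and 85.7 after siDRR. Its anterior neighbour chr15:102856633-102859305 was weaker, at 40.3 and 47.8 in myoblasts and 19.4 and 18.9 in the second myotube and second siDRR libraries. The broad region chr15:102813619-102820456 (6838 bp) was missing only from the first siDRR library and reached 93.3 in the second. At the posterior end, chr15:102749842-102753706 stood at 36.3 and 60.4 in myoblasts and at 65.7 and 46.1 in the second myotube and second siDRR libraries. HoxD had no SMC3 region in all 6 libraries. The strongest in myoblasts was chr2:74553427-74554696, the last before the anterior stretch, at 91.3 and 85.9 in myoblasts, 66.2 and 60.9 in myotubes and 69.9 in the second siDRR library. The HoxD regions chr2:74501230-74502387 and chr2:74510640-74511728 were called in 5 of 6 libraries with best percentiles of 64.2 and 67.4.

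A further 4 SMC3 sites in HoxA and HoxB were called in both libraries of myoblasts but of no other group. They were chr6:52160950-52164010 (50.9 and 81.0) and chr6:52189823-52191280 (54.0 and 61.8) in HoxA, and chr11:96059588-96060484 (32.7 and 25.6) and chr11:96101148-96102268 (63.3 and 59.3) in HoxB. Each was also called in the second myotube library, and all but chr11:96059588-96060484 in the second siDRR library.

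**Figure D3:**
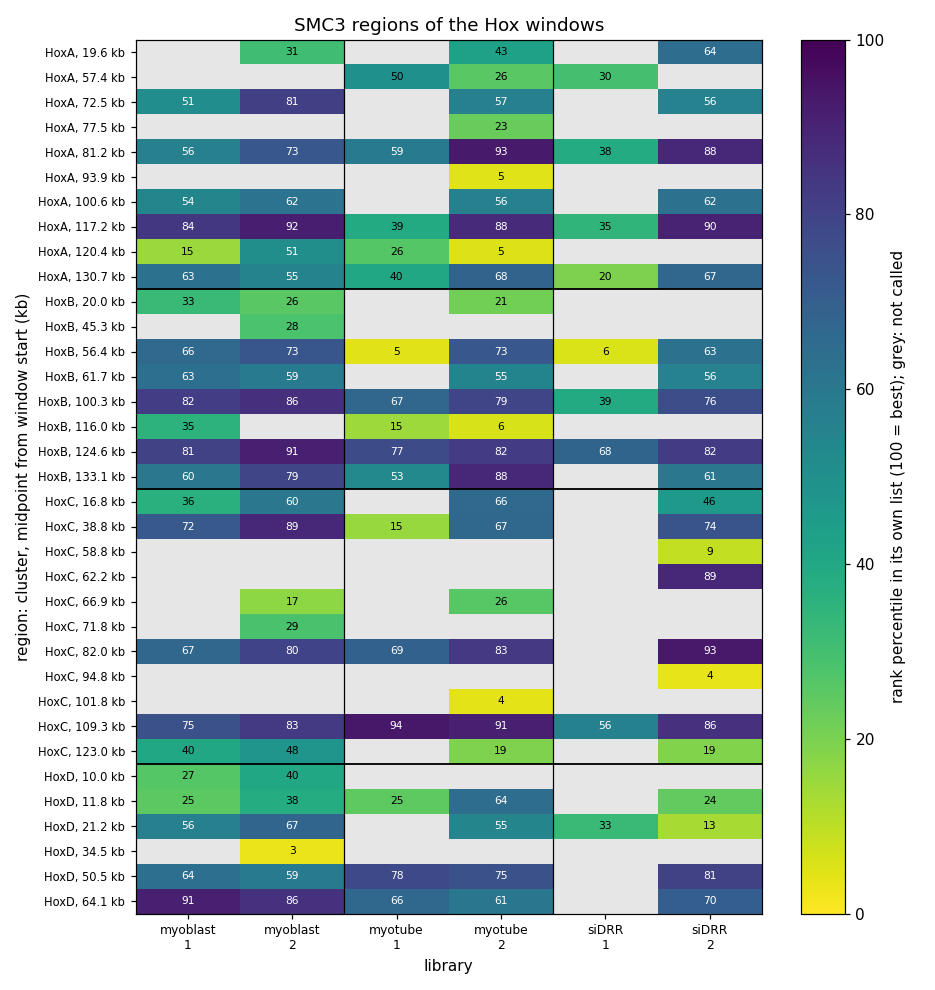
Rank percentile of each of the 35 SMC3 regions (rows, by cluster and midpoint in kb from the window start) in each of the 6 libraries (columns), with grey for not called; percentiles are places within each library's own list, and the lists differ in length. The first siDRR library called 9 of the 35 regions and the second 23.

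Most Hox cohesin sites of myoblasts were called again in myotubes, as over the genome, and 5 of 12 took higher ranks in myotubes. Myoblast libraries called 23 and 27 Hox regions and myotube libraries 16 and 28, or 25 ± 2.83 against 22 ± 8.49 (SD, n = 2; two-sided exact permutation p = 1, 1 after Benjamini-Hochberg adjustment over 4 comparisons). Per 10000 regions called, Hox regions made up 7.51 and 8.18 in myoblasts and 10.7 and 10.6 in myotubes (exact permutation p = 0.333, adjusted 0.666). The groups did not overlap, and 0.333 is the smallest p that 2 against 2 libraries can give.

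Of 22 Hox regions called in both myoblast libraries, 14 (63.6%) were called in both myotube libraries too, beside 51.6% over the genome. Neither myotube library called 1 of the 22, chr2:74499507-74500497 at the posterior end of HoxD (26.5 and 40.1 in myoblasts), while over the genome 21.7% of such regions were lost. Of 16 Hox regions called in both myotube libraries, 1 was called in neither myoblast library, beside 2.43% over the genome. It was chr6:52146692-52148025 in HoxA, at 49.9 and 25.7 in myotubes and 29.7 in the first siDRR library, at the posterior border of the 35.1 kb stretch without SMC3.

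With lists cut to 15056 peaks, 12 Hox regions were called in all 4 libraries. Both myotube libraries ranked 5 of them above both myoblast libraries, beside a background of 20.9%, and 2 below, beside 20.6%. The median change was 13.9 percentile points in the Hox windows and -0.20 over the genome, where 5% of regions lay below -33.7 and 5% above 34.6. The HoxD region chr2:74539833-74541111 went from 25.2 and 9.01 in myoblasts to 77.9 and 56.1 in myotubes. The HoxA region chr6:52169609-52172796 went from 10.4 and 40.0 to 58.5 and 87.1. Both changes, of 49.9 and 47.6 points, were beyond that genome range.

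The other 3 that ranked higher changed by 25.6 to 33.0 points. They were chr15:102843287-102845312 in HoxC (49.3 and 62.2 to 93.5 and 84.1), chr15:102813619-102820456 in HoxC (32.0 and 55.9 to 69.0 and 70.2) and chr6:52220060-52221344 in HoxA (23.0 and 1.74 to 40.2 and 43.4). Both myotube libraries ranked lower at chr15:102772547-102775071 in HoxC (42.5 and 75.7 to 15.2 and 40.9) and at chr2:74553427-74554696 in HoxD (82.1 and 69.0 to 66.2 and 30.4). In HoxD the ranks thus differed in opposite directions at sites whose midpoints are 13.6 kb apart. The 4 HoxB regions overlapped between the stages, and 3 of them differed by 7.10 points or less. With 2 libraries a group, separation of single regions was given as a count beside the background and not as a test, and with full lists 2 of 14 regions in place of 5 of 12 ranked higher.

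**Figure D4:**
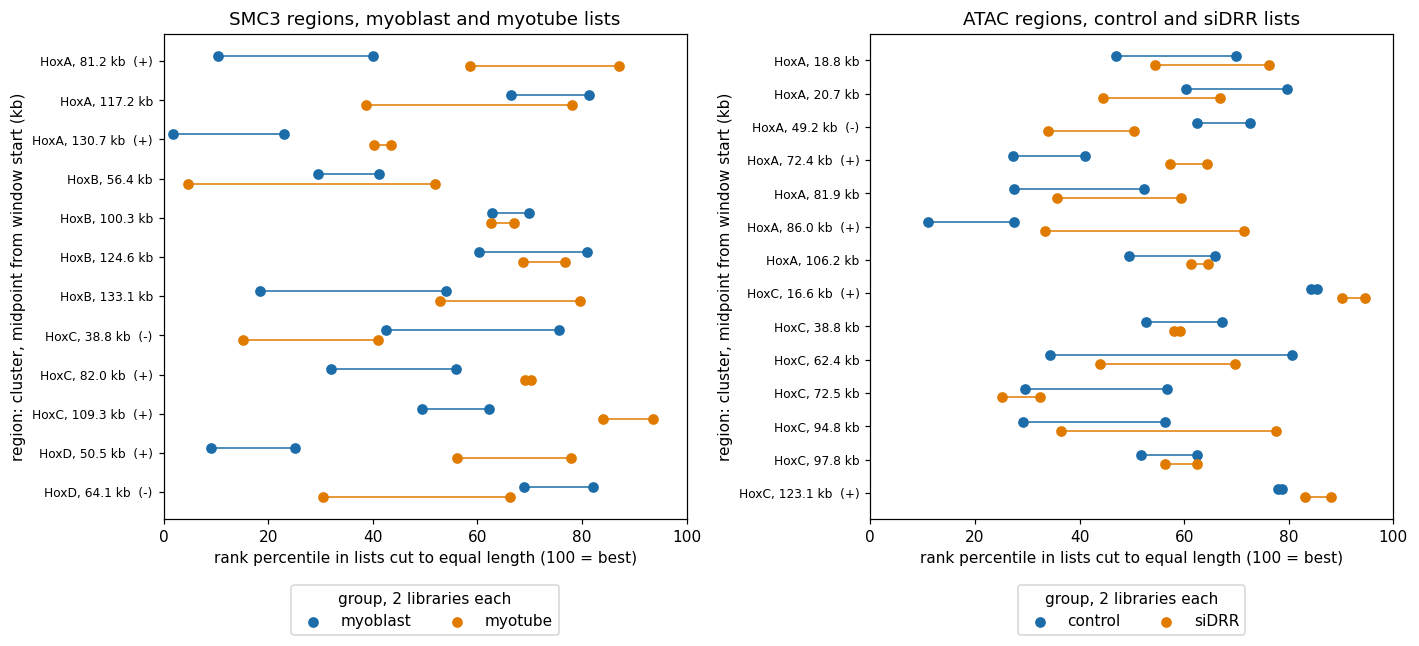
Rank percentiles of Hox regions called in all 4 libraries compared, after the lists were cut to equal length: SMC3 in myoblasts and myotubes (left) and ATAC after control siRNA and siDRR (right). Each point is 1 library, lines join the 2 libraries of a group, and plus and minus mark the regions whose second group lies wholly above (5 of 12 and 4 of 14) or below (2 of 12 and 1 of 14) the first.

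After siDRR, fewer Hox SMC3 regions were called in the first library, and the change was within the spread between libraries. The siDRR libraries called 9 and 23 regions, or 16 ± 9.90 against 22 ± 8.49 in myotubes (SD, n = 2; two-sided exact permutation p = 0.667, adjusted 0.889). Per 10000 regions called the values were 10.8 and 10.1 after siDRR and 10.7 and 10.6 in myotubes (exact permutation p = 1). Both siDRR libraries called 7 of the 16 regions (43.8%) shared by the myotube libraries, beside 51.5% over the genome. Neither siDRR library called 2 of the 16, beside 6.45% over the genome. These were chr6:52209276-52211531 in HoxA (26.4 and 5.26 in myotubes) and chr11:96155465-96156484 in HoxB (14.7 and 5.94), both near the end of the second myotube list. A gain in both siDRR libraries was seen for 0 Hox regions, beside 0.49% over the genome.

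With lists cut to 8384 peaks, only 4 Hox regions were called in all 4 libraries. None ranked higher in both siDRR libraries (0 of 4; background 15.3%) and 1 of 4 ranked lower (background 15.4%). This was chr15:102843287-102844921 in HoxC, at 88.3 and 71.4 in myotubes and 56.0 and 60.5 after siDRR, the site that had ranked higher in myotubes than in myoblasts. That both contrasts share the myotube libraries makes these values no independent evidence of a reversal. A HoxC region, chr15:102795789-102798665, was called by the second siDRR library alone, at a percentile of 88.5, although ATAC called chr15:102796031-102798807 in all 6 libraries at 61.1 to 80.6. It was singled out after its values had been seen.

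The sites named in each window were the 3 with the highest mean percentile when a library without a call counted as 0, an order that favours sites called in all libraries. On this order the HoxC sites stood highest. There, chr15:102750258-102752891 stood at percentiles of 84.2 and 91.4 after control siRNA, 95.5 and 94.2 after siDRR and 83.1 and 90.7 after siSmc3. The site chr15:102857207-102858945, near the anterior end, stood at 78.0 and 87.5, 90.1 and 90.0, and 89.2 and 93.0. The site chr15:102827966-102833893 (5928 bp) stood at 62.4 and 71.8, 81.4 and 74.2, and 88.4 and 85.9. These 3 sites were called in all 6 libraries. The first and second lie inside the SMC3 regions chr15:102749842-102753706 and chr15:102856633-102859305, each called in 4 SMC3 libraries, and the third overlaps by 3498 bp an SMC3 region that only the second siDRR library called.

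In HoxA, chr6:52100428-52101163 had the highest single value (93.1) but was called in 5 libraries and was not among the 3 named. The adjacent anterior sites chr6:52107904-52109762 and chr6:52109775-52111600 ran from 69.1 to 82.0 and from 53.8 to 88.1. The site chr6:52194715-52197249 ran from 43.2 to 79.1, lowest in the first siSmc3 library. In HoxB the best was chr11:96172467-96173399, called by the second library of each group at 40.8, 58.0 and 50.1, inside the SMC3 region chr11:96172421-96173721. The next, chr11:96155756-96156367 (27.8 and 42.8) and chr11:96116871-96117270 (7.42 and 60.6), were each called in 2 libraries. In HoxD, chr2:74553735-74554306 was called in 4 libraries at 34.2 to 60.5 and lies inside the SMC3 region chr2:74553427-74554696. The HoxD SMC3 region that ranked highest in myotubes, chr2:74539833-74541111 (77.9 and 75.3), overlapped no ATAC peak of any library. Also in HoxD, chr2:74578292-74579154 was called in 2 libraries (70.5 and 67.0) and chr2:74512427-74513473 in 3 (11.8, 60.9 and 16.8).

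**Figure D5:**
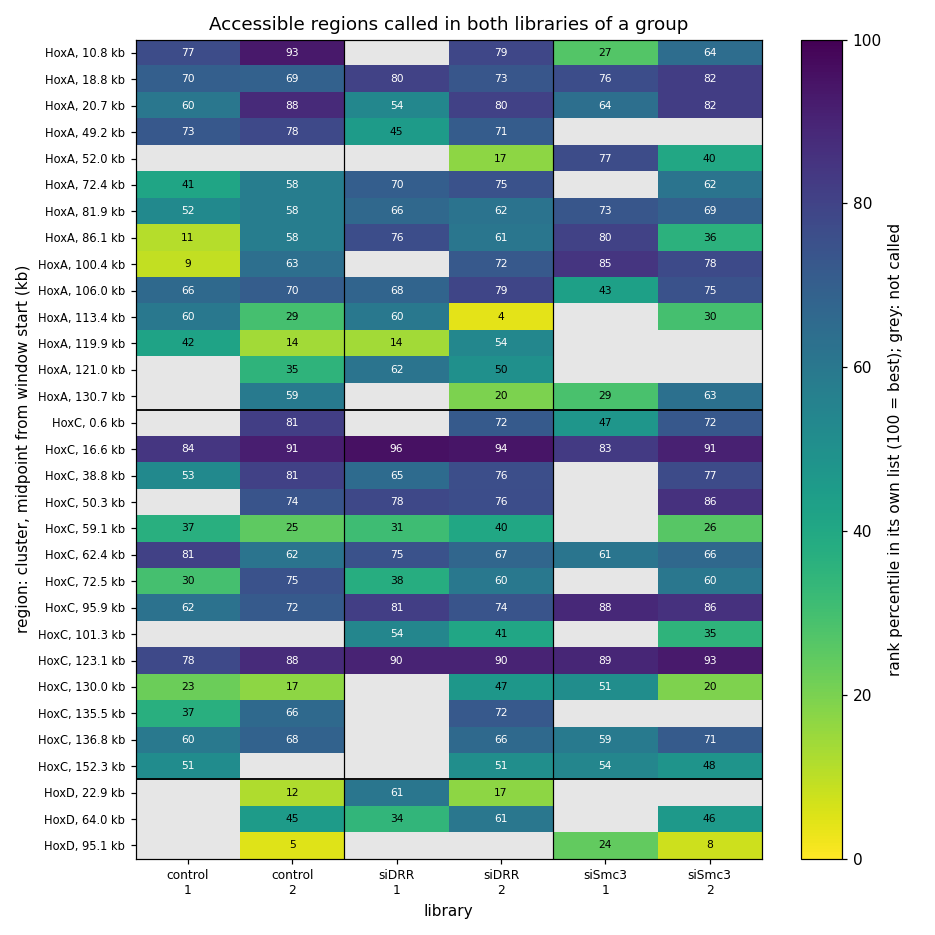
Rank percentile of the accessible regions called in both libraries of at least 1 group (rows, by cluster and midpoint in kb from the window start) in each of the 6 ATAC libraries (columns), with grey for not called. No HoxB region met this condition, and 3 HoxD regions did.

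Most accessible sites of HoxA and HoxC were called again after siDRR, as over the genome. Control libraries called 28 and 46 Hox regions and siDRR libraries 35 and 50, or 37 ± 12.7 against 42.5 ± 10.6 (SD, n = 2; two-sided exact permutation p = 0.667, adjusted 0.889). Per 10000 regions called these were 4.93 and 4.82 against 5.21 and 5.25, groups that did not overlap (exact permutation p = 0.333, adjusted 0.666). The siDRR libraries both called 16 of the 21 regions (76.2%) shared by the control libraries, beside 72.5% over the genome. From both, 0 were lost, beside 5.85%. Of 21 regions in both siDRR libraries, 1 was in neither control library, beside 6.21%. It was chr15:102835720-102836860 in HoxC, at 54.2 and 41.0 after siDRR and 35.0 in the second siSmc3 library.

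With lists cut to 58137 peaks, 14 Hox regions were called in all 4 libraries. Both siDRR libraries ranked 4 of them higher (background 20.9%) and 1 lower (background 16.9%). The higher ones were chr6:52161095-52163728 (41.0 and 27.3 to 64.3 and 57.3) and chr6:52174964-52176989 (11.1 and 27.5 to 71.5 and 33.4) in HoxA, and chr15:102750258-102752870 (84.2 and 85.4 to 94.6 and 90.2) and chr15:102857239-102858945 (78.0 and 78.7 to 88.2 and 83.0) in HoxC. The lower one was chr6:52138800-52139649 in HoxA, inside the stretch without SMC3, at 72.6 and 62.5 after control siRNA and 33.9 and 50.4 after siDRR.

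After siSmc3, 3 sites shared by the control libraries had no peak in either library, 2 of them in HoxA and 1 in HoxC. The siSmc3 libraries called 33 and 57 Hox regions, or 45 ± 17.0 against 37 ± 12.7 (SD, n = 2; two-sided exact permutation p = 0.667, adjusted 0.889), and 4.22 and 5.71 per 10000 regions called (exact permutation p = 1). Of the 21 control regions 13 (61.9%) were called in both siSmc3 libraries, beside 66.5% over the genome, and 3 were lost, beside 8.21%. They were chr6:52138800-52139649 in HoxA (72.6 and 78.1 in the control lists), chr6:52209436-52210428 in HoxA (42.1 and 14.0) and chr15:102869924-102871070 in HoxC (36.8 and 65.8). The last lies 22 bp from chr15:102871093-102872563, which both siSmc3 libraries called, and with gaps of up to 500 bp merged 2 regions were lost. The second of the 3 lies inside chr6:52209276-52211531, an SMC3 region called in both myotube libraries, while the other 2 overlap no SMC3 region of any library. Of 18 regions in both siSmc3 libraries, 1 was in neither control library, beside 9.58%: chr6:52141759-52142280 in HoxA (76.7 and 40.2, and 17.2 in the second siDRR library), 2.1 kb from the lost site chr6:52138800-52139649.

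At equal length, 10 Hox regions were called in the 2 control and the 2 siSmc3 libraries. Both siSmc3 libraries ranked 3 higher (background 19.4%) and 1 lower (background 21.5%). The higher ones were chr6:52189659-52191184 in HoxA (9.26 and 37.5 to 78.5 and 60.5), and chr15:102827966-102833893 (62.4 and 51.7 to 83.9 and 75.1) and chr15:102857207-102858848 (78.0 and 78.7 to 85.0 and 87.5) in HoxC. The lower one was chr15:102750555-102752891 (84.2 and 85.4 to 76.5 and 83.6). Both knockdowns were compared with the same 2 control libraries, so their values stand side by side only. The site chr6:52138800-52139649 ranked lower after siDRR and was not called after siSmc3, and the posterior HoxC site ranked higher after siDRR and lower after siSmc3.

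Cohesin sites overlapped accessible sites of both control libraries in HoxA and HoxC. HoxB and HoxD had no such accessible site, so their counts of 0 are fixed by that. Of the SMC3 regions in both myoblast libraries, 4 of 6 in HoxA and 3 of 5 in HoxC overlapped accessible regions of both control libraries, against 0 of 6 in HoxB and 0 of 5 in HoxD. Together this was 7 of 22 (31.8%), beside 30.0% over the genome. The ATAC libraries are all from myotubes, so this sets one stage beside the other. Of those in both myotube libraries, 2 of 5 in HoxA, 1 of 3 in HoxC, 0 of 5 in HoxB and 0 of 3 in HoxD overlapped. Together this was 3 of 16 (18.8%, exact Clopper-Pearson 95% interval 4.05% to 45.6%), beside 26.4% over the genome. Counting ATAC peaks of any library, 15 of the 16 overlapped, including 5 of 5 in HoxB, beside 79.5% over the genome. Seen from the accessible side, 13 of 21 regions (61.9%) of both control libraries overlapped SMC3 of any library, beside 46.2% over the genome. Intervals of shares cover counting error only.

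DRR ChIRP regions stood at 4.60 per 100 kb in the Hox windows and 3.69 over the genome, and no region was shared by the probe pools. The pool 1 libraries had 1 and 16 summits and the pool 2 libraries 13 and 6. Widened by 250 bp on each side and merged, the 36 summits made 29 regions: 8 in HoxA, 11 in HoxB, 5 in HoxC and 5 in HoxD. The pools shared 0 of these 29, beside 1.18% of all ChIRP regions over the genome, so the absence of shared regions is not particular to the Hox windows. Both pool 1 libraries found 1 of the 29, chr11:96096149-96096688 in HoxB, beside 3603 of 97348 ChIRP regions over the genome. Both pool 2 libraries found 5 of the 29, beside 12511 of 97348, of which 3 were in HoxB and 2 in HoxD. These counts are near the genome shares.

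The HoxB region of both pool 1 libraries held the summit with the highest single percentile in the 4 windows, but its libraries differed widely. Its summits, at 96096438 (percentile 32.4) and 96096399 (98.8), lie inside the SMC3 region chr11:96095855-96097034 of all 6 SMC3 libraries. The sites of both pool 2 libraries were chr11:96094207-96094733 (39.9 and 63.0), chr11:96129391-96129903 (81.7 and 85.4) and chr11:96229783-96230307 (39.9 and 57.5) in HoxB, and chr2:74512912-74513421 (77.4 and 63.0) and chr2:74590835-74591340 (60.3 and 63.0) in HoxD. None of these 5 overlapped an SMC3 region of any library, and the first lies 1.1 kb from the SMC3 region that the pool 1 summits fall in. The best-ranked summit of HoxA was at 52204330 (96.2, second pool 1 library), of HoxC at 102819339 (23.8, first pool 2 library) and of HoxD at 74513162 (77.4, first pool 2 library).

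Of the 29 ChIRP regions, 9 (31.0%, exact 95% interval 15.3% to 50.8%) overlapped SMC3 of any library, beside 4.38% of ChIRP regions over the genome. For SMC3 of both myotube libraries these were 7 of 29 (24.1%), beside 1.53%, and for ATAC of both control libraries 5 of 29 (17.2%), beside 4.05%. The windows are rich in SMC3, and the part of that density in the overlap was not tested. By cluster, SMC3 of any library was overlapped by 4 of 8 ChIRP regions in HoxA, 2 of 11 in HoxB, 2 of 5 in HoxC and 1 of 5 in HoxD. Of these 9 ChIRP regions only chr11:96096149-96096688 was found by more than 1 library. In HoxD the summit itself lay outside the SMC3 region. In HoxA they included 2 summits of the first pool 2 library, at 52169971 (percentile 23.1) and 52171263 (3.71), in the SMC3 region chr6:52169609-52172881. They also included a summit of the second pool 1 library at 52147300 (68.2) in chr6:52146692-52148025, the region gained in myotubes.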

How the data were processed

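The deposited files were peak lists, 1 per library, in mm9 coordinates per the submitters' processing notes. As tools, with no role given, the notes list MACS 1.4.2, MACS2, Bowtie 1.1.1, Bowtie2 2.2.4, CASAVA 1.8.2, bcl2fastq 2.17.1 and cutadapt 1.12. For the calling control, the threshold, read filters and any shift of ATAC reads, the settings were not given in the sources used here. Each peak carries a score that the authors' peak caller assigned, on a scale that is not stated, from 50 upwards in SMC3 and from 30 in ATAC lists. It was used only to rank or filter peaks within a list. SMC3 and ATAC lists held intervals and ChIRP lists single-base summits. Depth is unknown, so no interval on a peak's height was possible. Peaks on chromosomes 1 to 19, X and Y were used (762764 of 763552).

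Peaks of an assay were merged where they shared 1 bp (summits after widening by 250 bp). A region was lost or gained where both libraries of a group called it and neither of the other did. Backgrounds are the same counts over all regions of the genome. Counts per library were compared with a two-sided exact permutation test, and shares were given with exact binomial intervals. Scripts used Python 3.11.15, numpy 2.4.6 and scipy 1.17.1 and were tested on simulated lists. Named regions were every SMC3 region called in both libraries of a group, the 3 ATAC regions per window of highest mean percentile (0 where not called), every lost or gained region, every ChIRP region of 2 libraries and the best summit per window. Regions separated by rank at equal length were named as well, a choice made after their values had been seen, as were the promoter search and the widths. The windows, genes and lists were chosen with earlier results of these data known. No mm9 genome was used, so the planned motif search in peaks was not run. The 10 input and LacZ samples were not analysed here. No 2 lists of an assay were copies of each other. Alternatives tried were other merging distances and overlaps, lists cut to equal length, the better-scoring 50% of peaks, narrower windows, a replicate block and leaving out each library.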

Additional observations from a re-analysis of the deposited data

How the results depend on the processing

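Of the alternatives that kept all libraries, 88 values were counted as the same, 23 as moved and 5 as reversed. The 88 include the replicate block, which cannot change a difference. For counts of regions and summits in this section, equal length meant every list of an assay cut to its shortest. This was 8384 peaks for SMC3, 58137 for ATAC and 3765 for ChIRP. The same meant within 1.5 times for counts of regions and unchanged direction for differences. For ChIRP summits it meant within the SD of the 2 libraries, and for the overlap share within its 95% interval. Pool 1 at 1.5 summits a library at equal length (in place of 8.5) was thus counted as the same. So was an overlap of 6.25% with at least 50% of the SMC3 region covered (in place of 18.8%). The reversals were all in the number of Hox regions called (second minus first group). With lists cut to equal length the differences became 2 for differentiation (in place of -3), 1.5 for SMC3 after siDRR (-6), -0.5 for ATAC after siDRR (5.5) and -3.5 after siSmc3 (8), which was -1 with the better-scoring 50% of peaks. No difference passed its test under any of these, and 2 libraries a group cannot give an exact p below 0.333.

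At equal length, differentiation had 0 lost and 2 gained regions, SMC3 after siDRR 1 and 1, and 0 were gained in ATAC after siSmc3. With the better-scoring 50%, differentiation had 0 lost and 0 gained, SMC3 after siDRR 0 lost, ATAC after siDRR 0 gained, and siSmc3 1 lost and 0 gained. Pool 2 had 0.5 ChIRP summits a library at equal length, in place of 9.5. Counting regions of at least 1 library, 57.1% of Hox SMC3 regions in myotubes overlapped accessible ones, in place of 18.8%. Chosen after seeing the data, the better-scoring 50% left 6 accessible regions in HoxA and 6 in HoxC in both control libraries, and 0 in HoxB and HoxD. For SMC3 of both myotube libraries it left 1 in HoxA and 3 in HoxB, and equal length left 1 in HoxA, 3 in HoxB and 1 in HoxD. With full lists 2 regions ranked higher after differentiation, 7 in ATAC after siDRR and 5 after siSmc3.

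Leaving out 1 library at a time, the difference in regions called ran from -9 to 3 for differentiation, -13 to 1 for SMC3 after siDRR, -3.5 to 14.5 for ATAC after siDRR and -4 to 20 after siSmc3. The sign turned without the first myotube library (3), the first siDRR SMC3 library (1), the first control (-3.5) or second siDRR ATAC library (-2), and, for siSmc3, the first control (-1) or second siSmc3 library (-4). In that order of comparisons, lost regions ran from 1 to 8, 2 to 8, 0 to 13 and 3 to 15, and gained ones from 1 to 4, 0 to 3, 1 to 17 and 2 to 24, where a single library stands for its group. For ranks, the lists of each comparison were cut to the shortest of the libraries kept, so the cut varied with the library left out. Regions ranked higher at equal length ran from 5 to 10, 1 to 4, 5 to 13 and 3 to 6, and lower ones from 2 to 5, 1 to 2, 2 to 4 and 2 to 6. The highest were 10 of 21 regions without the first myotube library and 13 of 17 without the first control library. Pool 1 ran from 1 to 16 summits and pool 2 from 6 to 13, and the overlap from 18.8% to 50%. Accessible control regions ran from 11 to 18 in HoxA, 1 to 6 in HoxB, 12 to 16 in HoxC and 4 to 6 in HoxD, and myotube SMC3 regions from 5 to 10, 5 to 7, 3 to 7 and 3 to 4. The counts of sites called thus rest on the requirement of both libraries. The replicate numbers name no shared culture. Entering replicate number as a block cannot change the differences of -3, -6, 5.5 and 8. The exact sign-flip permutation p was 1, 0.5, 0.5 and 0.5, where 0.5 is the smallest possible. The pairing could not be checked with 2 pairs. Peak lists without read counts set the limit of all values: a site not called may lie just under the authors' threshold.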
